A study of Mus musculus with 30 samples.

Results

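The genes described here are the DNA replication and repair families carried by a 2-colour mouse array: the origin recognition and Mcm helicase proteins, the GINS complex, the replicative and translesion polymerases, the sliding clamp and its loader, replication protein A, ligases, ribonucleotide reductase, and the Rad, Xrcc, Ercc, Fanc, Brca, Msh and Parp families. They were chosen by gene symbol, with earlier results of these data known, from probes with 1 platform symbol. This gave 83 genes with 1 probe each among 13027 features. To be tested, a gene needed 3 or more values in each of the groups of 4 samples and 2 or more at day 5. That left 35 of the 83 (42.17%), against 49.14% of the features with a symbol and 6515 features in all. A symbol rule also takes in genes outside the named complexes and pathways, such as Mcm3ap, Rad21 of cohesin, Rad54l2 and Ercc6l2. The 8 such genes form their own role group, but the 5 of them tested are in every count over the 35. Placement in that group does not mean that a gene has no part in repair.

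The RNA came from leukocytes of the peripheral blood of mice of the inbred strain DBA/2, whose age and sex the labels do not give. There were 4 untreated samples, and 4, 4 and 3 samples harvested 1, 2 and 5 days after cyclophosphamide at 83 mg per kg into the peritoneum; the labels call the samples independently harvested. Each sample carried Cy5 and was compared on the array with a pool of bone marrow cells of the same strain in Cy3. Labels of the pool disagree: its cell type entry says untreated, and its treatment entry names the drug at 83 mg per kg. Each value is therefore a log2 ratio of blood over marrow, so that a negative value means less of a transcript in blood relative to marrow, and the base of the logarithm was taken as 2. Both the changes and the ratios are relative to array columns centred near 0, not absolute amounts.

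Replication starts where the origin recognition complex loads the Mcm helicase, which Cdc45 and GINS then activate. The polymerases copy both strands behind it, held on DNA by the Pcna ring that the Rfc complex loads, while RPA covers the single strands and DNA ligase seals the fragments. These genes are transcribed chiefly in dividing cells, many under E2F control, and dividing cells are plentiful in marrow and scarce in blood. Cyclophosphamide is an alkylating prodrug whose active product cross-links DNA. Cells meet such cross-links with the Fanconi proteins, nucleotide excision repair, homologous recombination and translesion polymerases, which copy past damaged bases.

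Promoter sequence was examined as a feature that the symbol rule did not use. RefSeq promoter windows on GRCm38.p6, from 250 bases before to 50 after a transcription start, were matched by symbol for 70 of the 83 genes and held 82 windows. An E2F-type motif (TTTCGCGC, TTTGCCGC, TTTGGCGC or TTTCCCGC on either strand) stood in 19 of those windows (23.2%), against 2.26% of all 32851 windows in the table. A CCAAT box on either strand, which none of these strings contains, stood in 51.2% of them, against 37.4% of all windows. The 18 genes with an E2F-type motif included Orc1 and Orc3 of the origin recognition complex, Gins3, and the helicase subunits Mcm3, Mcm5, Mcm6 and Mcm7, and 7 of the 18 were tested. The stretches below run 5′ to 3′ on the gene's strand. Capitals mark an E2F-type match or a CCAAT box, and a stretch all in lower case holds neither. Orc1, Gins3, Pole4 and Fancg are shown for the motif, and Rpa3 and Polk because both passed the test for a difference between any groups.
Orc1, chr4:108579374-108579453, plus strand: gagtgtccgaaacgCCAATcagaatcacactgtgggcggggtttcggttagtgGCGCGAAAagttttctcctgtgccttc
Gins3, chr8:95633479-95633558, plus strand: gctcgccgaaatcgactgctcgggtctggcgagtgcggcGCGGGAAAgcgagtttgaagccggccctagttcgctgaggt
Pole4, chr6:82652875-82652954, minus strand: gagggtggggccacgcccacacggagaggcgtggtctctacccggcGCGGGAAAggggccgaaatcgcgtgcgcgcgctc
Fancg, chr4:43010310-43010389, minus strand: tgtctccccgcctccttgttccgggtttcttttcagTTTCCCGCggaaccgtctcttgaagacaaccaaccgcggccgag
Rpa3, chr6:8259142-8259221, minus strand: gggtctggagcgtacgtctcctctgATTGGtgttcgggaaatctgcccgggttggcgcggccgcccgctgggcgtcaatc
Polk, chr13:96542580-96542659, minus strand: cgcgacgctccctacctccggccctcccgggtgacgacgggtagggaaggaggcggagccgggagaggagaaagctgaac

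A match is a description of letters, not a bound site. In untreated blood the median log2 ratio was -0.20 over the 7 tested genes with the E2F-type motif. It was -0.35 over the 23 tested genes with a window and no such motif, and the difference was not tested.

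Most of the families stood below marrow in blood. In untreated blood the median log2 ratio over the 35 tested genes was -0.34, and 28 of them were below 0, against a median of -0.02 over all 6515 features. The lowest ratios belonged to Rrm2 (gene 20135), the small subunit of ribonucleotide reductase that makes deoxyribonucleotides, at -2.13 ± 1.05 (SD, n = 4), Pcna (gene 18538), the sliding clamp, at -1.83 ± 0.09, and Lig1 (gene 16881), the ligase that joins Okazaki fragments, at -1.59 ± 0.97. The excision, single-strand break and mismatch repair genes lay nearer to marrow, between -0.36 and -0.05 for Ercc8, Lig3, Msh6 and Parp2. After the drug the corresponding medians were -0.33 (day 1), -0.29 (day 2) and -0.37 (day 5). In blood, fewer cells of a type and less RNA per cell cannot be told apart.

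A few replication genes varied widely between untreated mice while others did not. Rrm2 stood at -1.69, -0.88, -2.74 and -3.22 in untreated replicates 1 to 4. Lig1 stood at -1.48, -0.26, -2.25 and -2.38 in the same samples. Orc6 (gene 56452), a subunit of the origin recognition complex, stood at -0.62, -0.10, -1.43 and -1.81. In each of these genes replicates 1 and 2 were the higher pair and replicates 3 and 4 the lower, with no overlap. Rfc5 (gene 72151), a clamp loader subunit, showed the same order with -0.58, -0.37, -0.88 and -1.47. Pcna varied little, at -1.78, -1.73, -1.86 and -1.95, and so did Gins4 (gene 109145), a GINS subunit, at -1.13, -1.12, -1.05 and -0.95. These 6 genes were singled out after their values were seen. The mean log2 ratio of the 5 tested dividing-cell markers in the same 4 samples was -1.03, -0.91, -1.85 and -2.17, which splits the samples the same way; its part in these values was not tested.

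**Figure D1:**
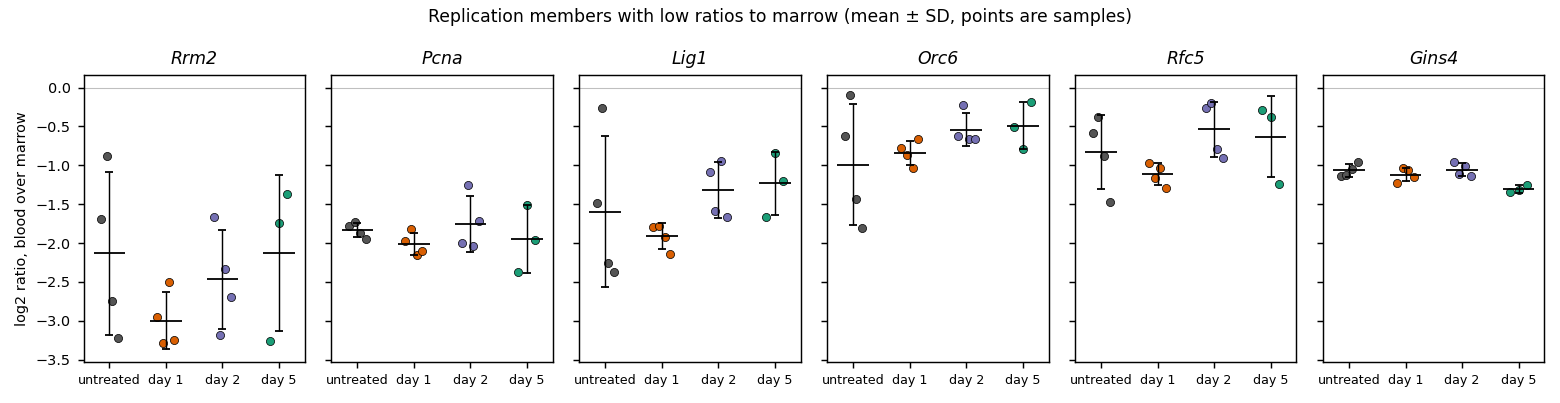
Log2 ratio of blood over marrow (y axis) for 6 replication genes in untreated, day 1, day 2 and day 5 samples (x axis); points are samples, the long bar is the group mean and the whiskers its SD. In untreated samples Rrm2 spans -3.22 to -0.88 and Lig1 -2.38 to -0.26, while Pcna spans only -1.95 to -1.73 and Gins4 -1.13 to -0.95.

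That spread limits what can be read for these genes. The untreated SD exceeded 0.5 in 4 of the 35 genes (Rrm2, Lig1, Orc6 and Ercc6l), against 4.16% of all features, although the median SD was 0.19 over the families and 0.18 over all features. At day 1 the 4 samples were closer together, with Rrm2 at -2.95, -3.29, -2.50 and -3.24 and Lig1 at -1.79, -1.78, -1.92 and -2.13. The day 1 samples of Rrm2 lay around the lower pair of untreated samples, and the groups overlapped. The day 1 change of Rrm2 was -0.86 ± 0.48 (log2, SE from the fit) with an adjusted p of 0.324 in limma, the most negative of the families at that day. At day 5 Rrm2 stood at -3.27, -1.74 and -1.37, within the untreated range in 2 samples and just below it in the other, and its change from untreated was 0.01 ± 0.52 (adjusted p = 0.996).

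Against untreated blood, none of the 35 tested genes of the symbol rule passed limma's test on any day. At day 1, 0 of 35 were called, against 4.6% of all features tested, and 3 (8.57%, against 21.1%) had an unadjusted p under 0.05 (Fancg, Polk and Polq). At day 2, 0 of 35 were called, against 12.7%, and 2 (5.71%, against 26.7%) had an unadjusted p under 0.05 (Ercc6l2 and Parp16). At day 5, 0 of 35 were called, against 1.09%, and 5 (14.3%, against 17.4%) had an unadjusted p under 0.05 (Fancl, Gins4, Lig3, Polk and Rpa3). Day 1 brought a median change of 0.03 over the 35 genes, day 2 one of 0.06 and day 5 one of -0.11, against 0.03, 0.06 and 0.0044 over all features.

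The intervals show how large a change could have gone uncalled. The 95% interval of the change lay within a 2-fold change in either direction (1 log2 unit) for 32 of 35 genes at day 1, 31 at day 2 and 30 at day 5. The corresponding shares over all features were 91.2%, 88.6% and 91.7%. The genes whose interval reached beyond 2-fold on at least 1 day were Ercc6l, Lig1, Orc6, Rpa3 and Rrm2. The 0 calls against untreated depended on the setting. At day 1 Polk passed without day 5 replicate 3 and Polq without day 1 replicate 3, each a count of 1. The shares of all features were 6.48% and 6.72%. At day 2 Parp16 passed without day 2 replicate 4 or day 5 replicate 3, again a count of 1, against 10.3% and 14.5%. With the columns scaled to 1 spread, Polk and Polq passed at day 1, against 8.15% of all features. Ercc6l2, Pola2 and Rad52 then passed at day 2, against 16.2%. At day 5 Polk and Rpa3 passed with the sample as a random effect, against 6.25%.

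**Figure D2:**
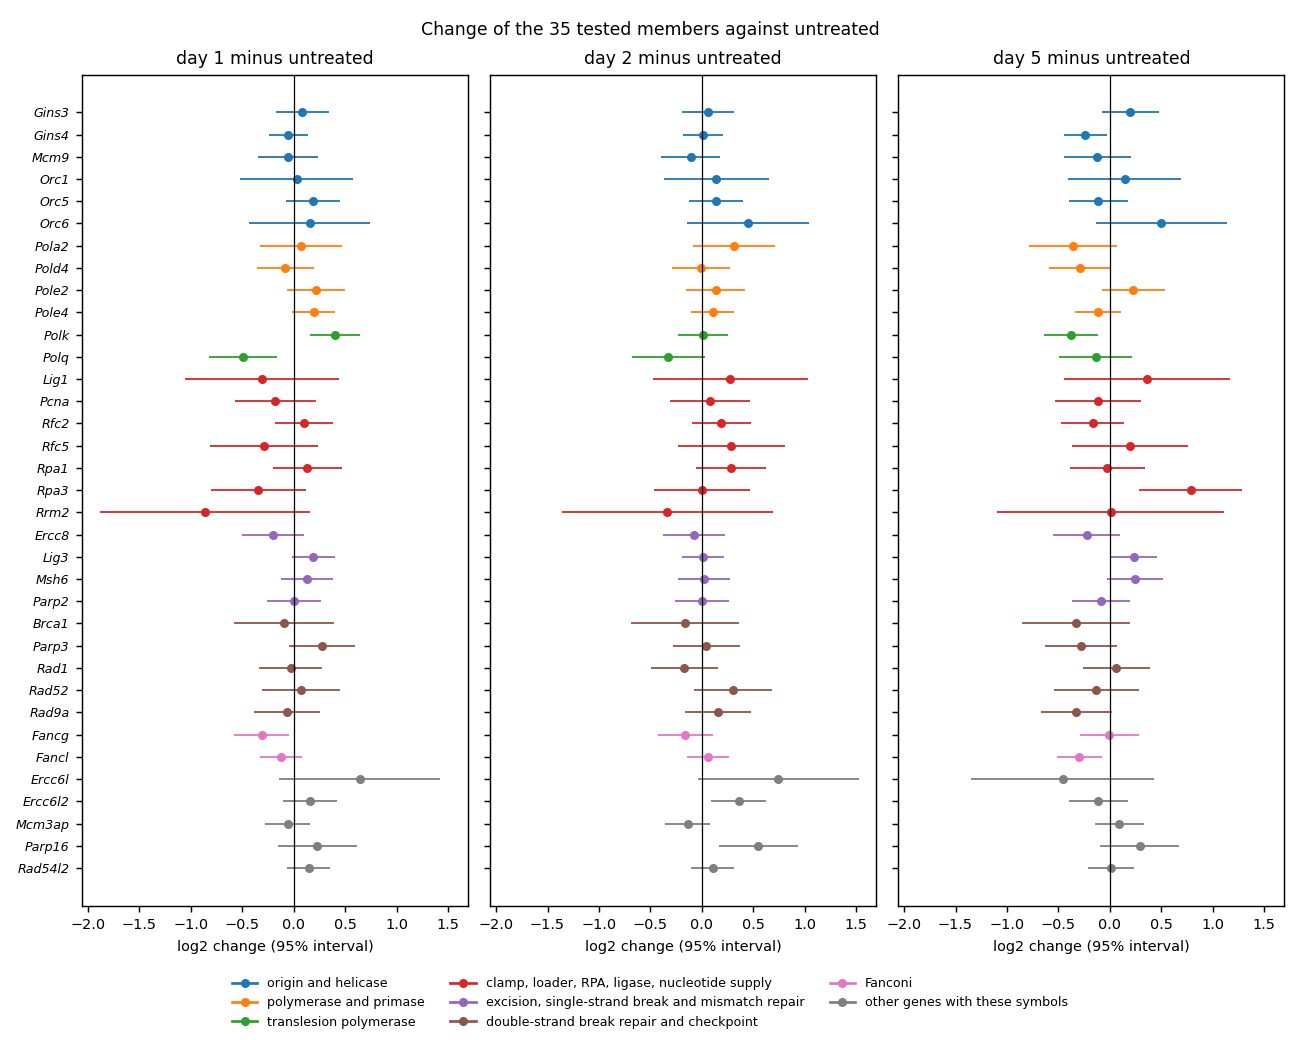
Log2 change of each of the 35 tested genes against untreated (x axis) at days 1, 2 and 5, with the gene on the y axis and colours for the role group; points are the fitted changes and bars their 95% intervals. Most points lie within 0.5 of 0, the widest intervals belong to Rrm2, Lig1 and Ercc6l, and no gene was called at an adjusted p under 0.05.

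The differences that passed lay between day 5 and the earlier days of treatment. Between day 5 and day 1, 3 of 35 genes were called (8.57%), against 18.8% of all features (9.67% higher and 9.09% lower): Rpa3 rose, and Polk and Parp3 fell. From day 2 to day 5, 6 of 35 were called (17.1%), against 25.5% of all features (12.8% higher and 12.7% lower): Rpa3 rose, and Ercc6l2, Fancl, Pola2, Polk and Rad9a fell. From day 1 to day 2, 0 of 35 were called in limma, against 1.15%, and 2 (5.71%, against 11.7%) had an unadjusted p under 0.05 (Polk and Rfc5). The moderated F test for a difference between any of the groups called Polk (adjusted p = 0.0021) and Rpa3 (adjusted p = 0.015), 2 of 35 against 22.7% of all features. In each comparison the share called was lower in the families than over all features, and that difference was not tested. The 2 comparisons with day 5 share its 3 samples and are not independent of each other.

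**Figure D3:**
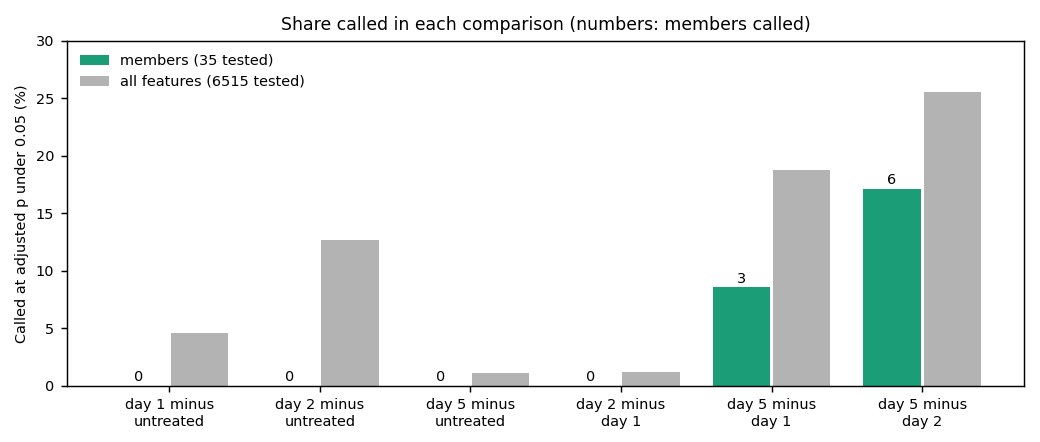
Share of genes called at an adjusted p under 0.05 (y axis, percent) in each of the 6 comparisons (x axis). Bars are for the 35 tested genes of the symbol rule and for all 6515 features. The digits above the bars are the numbers of family genes called. The family share is 8.57% against 18.8% between day 5 and day 1, 17.1% against 25.5% between day 5 and day 2, and 0 elsewhere.

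Polk (gene 27015) encodes DNA polymerase kappa, a translesion polymerase that copies past bulky adducts on guanine. Its log2 ratio was -0.46, -0.35, -0.12 and -0.40 in untreated replicates 1 to 4. It was 0.03, 0.24, -0.0036 and 0.01 at day 1, and -0.35, -0.50, -0.25 and -0.17 at day 2. At day 5 it was -0.82, -0.79 and -0.53. All 4 day 1 samples lay above every other sample, and all 3 day 5 samples lay below every other sample. From day 1 to day 5 Polk fell by 0.78 ± 0.12 on the log2 scale, 1.72-fold (limma, adjusted p = 0.0018), and from day 2 to day 5 it fell by 0.39 ± 0.12 (adjusted p = 0.028). The change from untreated was 0.40 ± 0.11 at day 1 (adjusted p = 0.056) and -0.38 ± 0.12 at day 5 (adjusted p = 0.148), both short of the threshold. The day 1 change passed in 7 of 26 alternatives, with adjusted p from 0.0072 to 0.174 in limma. The fall from day 1 kept its call under all 26 alternatives, while the fall from day 2 lost it in 6, among them without day 2 replicate 3 or 4 and without day 5 replicate 1 or 2 (adjusted p up to 0.108).

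Rpa3 (gene 68240) encodes the smallest subunit of replication protein A, which coats single-stranded DNA in replication and in repair. Its log2 ratio was -0.91, -0.17, -0.49 and -0.9955 in untreated samples and -0.98, -1.03, -0.95 and -0.98 at day 1. At day 2 it was -0.08, -0.47, -1.09 and -0.92, and at day 5 it was -0.18, 0.47 and 0.15. The day 1 samples were tightly grouped and low, and day 5 was the only group with samples above marrow. From day 1 to day 5 Rpa3 rose by 1.13 ± 0.24, 2.19-fold (adjusted p = 0.0048), and from day 2 by 0.78 ± 0.24 (adjusted p = 0.023). Day 5 did not overlap day 1 but did overlap day 2 and untreated, and the day 5 change from untreated was 0.79 ± 0.24 (adjusted p = 0.125). The rise from day 1 kept its call under all 26 alternatives. That from day 2 lost it in 4, without day 2 replicate 3 or 4, without day 5 replicate 2 and with only the 2 groups in the fit (adjusted p up to 0.109).

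The other RPA subunit with enough values, Rpa1, the large DNA-binding subunit, did not pass in any comparison. Its group means were not far from each other, with changes from untreated of 0.13 ± 0.16 at day 1, 0.28 ± 0.16 at day 2 and -0.03 ± 0.17 at day 5. Rpa2 had values in only 9 samples and was not tested. Whether Rpa3 differs from Rpa1 in its change was not tested.

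**Figure D4:**
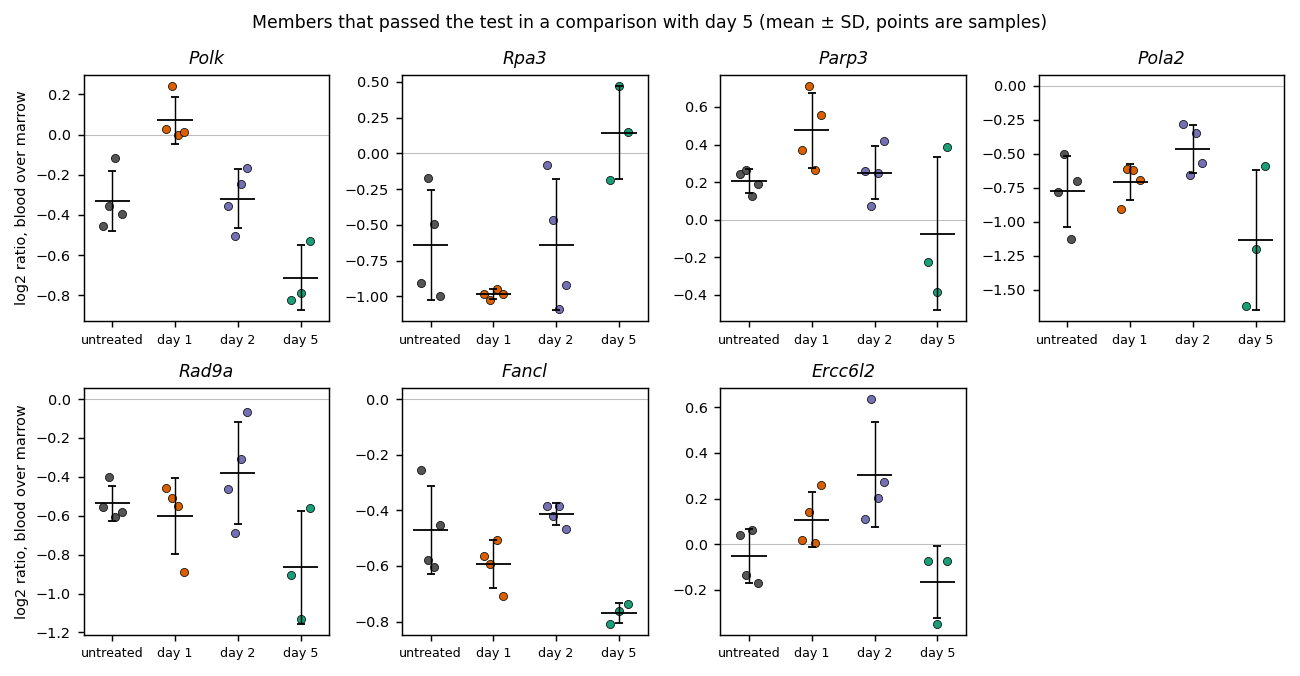
Log2 ratio of blood over marrow (y axis) in each group (x axis) for the 7 genes that passed the test in a comparison with day 5; points are samples, the long bar is the mean and the whiskers its SD. Polk is highest at day 1 (-0.0036 to 0.24) and lowest at day 5 (-0.82 to -0.53), and the mean of Rpa3 is highest at day 5. In Parp3, Pola2 and Rad9a 1 of the 3 day 5 samples lies inside the range of the group it was compared with. For Rpa3, day 5 replicate 1 lies inside the day 2 range.

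Fancl (gene 67030) encodes the ubiquitin ligase of the Fanconi pathway, which marks the Fancd2 and Fanci pair at cross-links. It stood at -0.26, -0.58, -0.60 and -0.45 in untreated samples, at -0.56, -0.59, -0.51 and -0.71 at day 1, and at -0.38, -0.42, -0.38 and -0.47 at day 2. At day 5 it stood at -0.81, -0.76 and -0.74. All 3 day 5 samples lay below every other sample. Fancl fell by 0.35 ± 0.10 from day 2 to day 5 (adjusted p = 0.020), and the day 5 change from untreated was -0.30 ± 0.10 (adjusted p = 0.180). The call was lost in 6 alternatives, among them quantile normalization, columns scaled to 1 spread and the fit without day 5 replicate 1 (adjusted p up to 0.142). The other tested Fanconi gene, Fancg (gene 60534), a core complex subunit, had a day 1 change of -0.31 ± 0.13 (adjusted p = 0.163).

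Ercc6l2 (gene 76251), a helicase-like protein whose loss is known to cause inherited bone marrow failure, was higher at day 2 than at day 5. It stood at 0.11, 0.64, 0.20 and 0.27 at day 2 and at -0.07, -0.35 and -0.07 at day 5. Untreated samples lay between -0.17 and 0.06 and day 1 samples between 0.0042 and 0.26. Day 2 lay wholly above both untreated and day 5. The fall from day 2 to day 5 was 0.47 ± 0.13 (adjusted p = 0.017), and the day 2 change from untreated was 0.36 ± 0.12 (adjusted p = 0.073). The call was lost in 4 alternatives, among them without day 5 replicate 2 (adjusted p up to 0.337).

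Pola2 (gene 18969), the accessory subunit of the polymerase alpha and primase complex that starts new strands, stood at -0.28, -0.66, -0.35 and -0.57 at day 2. At day 5 it stood at -1.62, -1.20 and -0.59. Untreated samples lay between -1.13 and -0.50 and day 1 samples between -0.90 and -0.61. Day 5 replicates 1 and 2 were the lowest of all samples, while replicate 3 lay inside the day 2 range. Pola2 fell by 0.67 ± 0.20 from day 2 to day 5 (adjusted p = 0.022).

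Rad9a (gene 19367), part of the 9-1-1 checkpoint clamp with Rad1 and Hus1, stood at -0.46, -0.69, -0.31 and -0.07 at day 2 and at -0.90, -1.13 and -0.56 at day 5. Untreated samples lay between -0.61 and -0.40. Day 1 samples lay between -0.89 and -0.45 and overlapped those of day 5. The day 2 and day 5 ranges overlapped through day 5 replicate 3, and the fall was 0.48 ± 0.16 (adjusted p = 0.039). Parp3 (gene 235587), an ADP-ribosyltransferase that acts at double-strand breaks, stood at 0.37, 0.71, 0.27 and 0.56 at day 1 and at -0.23, -0.38 and 0.39 at day 5. Its untreated samples lay between 0.12 and 0.27 and its day 2 samples between 0.08 and 0.42. Day 5 overlapped day 1 through replicate 3. It fell by 0.55 ± 0.16 from day 1 to day 5 (adjusted p = 0.030). Calls for these genes were not stable: Pola2 lost its call in 6 alternatives, Parp3 in 7 and Rad9a in 12, with an adjusted p up to 0.140, 0.165 and 0.263. Among these were the fits without day 5 replicate 1 or 2 for all 3 genes, without day 2 replicate 1 or 3 for Pola2, without day 1 replicate 2 or 4 for Parp3, and without day 2 replicate 1, 3 or 4 for Rad9a.

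Single samples moved these counts, and with them the shares over all features. In the comparison of day 5 with day 2, 2 genes passed without day 2 replicate 3 and 2 without day 5 replicate 1. The shares of all features were 20.8% and 18.4%. Without day 5 replicate 2 there was 1 gene, against 20% of all features, and without day 5 replicate 3 there were 11, against 28.5%. Between day 5 and day 1, 5 genes passed without day 5 replicate 3, against 24.1% of all features. Without day 5 replicate 1 or without day 1 replicate 2 there were 2, against 11% and 11.1%. The F test called 1 gene without day 5 replicate 2 and 4 without day 5 replicate 3. Its shares of all features in those fits are not given here. Scaling the columns to 1 spread left 3 genes between day 5 and day 2 (Rpa3 higher, Ercc6l2 and Pola2 lower), against 21.2% of all features. It gave 4 between day 5 and day 1, adding Rrm2, against 15.9%.

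Groups that did not overlap were also counted. Against untreated there were 3 such genes at day 1 (8.57%), 2 at day 2 (5.71%) and 4 at day 5 (11.4%), against 18.3%, 21.4% and 13.6% of all features, where 4.6%, 12.7% and 1.09% were called. Between day 5 and day 1, 11 of 35 genes (31.4%) had groups that did not overlap, against 30.5% of all features, where 18.8% were called. For day 5 against day 2 there were 5 (14.3%) against 30.4%, where 25.5% were called. Between day 2 and day 1 there were 5, Fancl, Lig1, Polk, Rad52 and Rfc5, against 9.21% of all features, where 1.15% were called. Lig1 at day 2 stood at -1.08, -1.58, -0.94 and -1.66, above all 4 day 1 samples, with a difference of 0.59 ± 0.35 (adjusted p = 0.550). All 7 tested genes of the clamp, loader, RPA, ligase and nucleotide group had a positive difference between day 2 and day 1, from 0.09 to 0.59, and none passed the test.

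Among the origin and helicase genes, 6 of 17 were tested and none was called in any comparison. Their changes from untreated ranged from -0.06 to 0.18 at day 1, from -0.11 to 0.45 at day 2 and from -0.24 to 0.50 at day 5. Orc6 had the largest, 0.50 ± 0.30 at day 5 (adjusted p = 0.404), with day 5 samples at -0.50, -0.79 and -0.18 inside the untreated range. Gins4 stood at -1.34, -1.32 and -1.25 at day 5, below all 12 other samples. Its day 5 change was -0.24 ± 0.10 (adjusted p = 0.232), and it turned to 0.11 with the columns scaled to 1 spread. Orc1, the ATPase subunit of the origin complex, changed by 0.03 to 0.14 on the 3 days, with standard errors of 0.24 to 0.26.

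Of the replicative polymerase and primase genes, 4 of 12 were tested: Pola2, Pold4, Pole2 and Pole4. Pold4, the smallest subunit of polymerase delta, had the next largest change after Pola2, -0.29 ± 0.14 at day 5 (adjusted p = 0.299). Its day 5 samples were -1.12, -0.66 and -0.45, the first of them the lowest of all and the last within the untreated range of -0.57 to -0.33. Pole2 and Pole4, accessory subunits of polymerase epsilon, changed by at most 0.23 from untreated in either direction.

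Polq (gene 77782), polymerase theta, joins broken ends through short homologies. It stood at -0.58, -0.05, -0.23 and -0.48 in untreated samples and at -0.74, -1.03, -0.53 and -1.04 at day 1, so that only day 1 replicate 3 overlapped the untreated range. The day 1 change was -0.50 ± 0.15 (adjusted p = 0.077), and it passed in 3 of 25 alternatives, among them without day 1 replicate 3. At day 2 it had values in 3 samples, -0.85, -0.46 and -0.67. Polh, polymerase eta, had values in 5 samples and was not tested.

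The excision, single-strand break and mismatch repair genes stayed close to their untreated ratios. The 4 tested of 13 had changes between -0.23 and 0.25 from untreated on all 3 days, and none was called in any comparison. The largest were Msh6, a mismatch recognition protein, at 0.25 ± 0.13 on day 5 (adjusted p = 0.333), and Lig3, the ligase of single-strand break repair, at 0.23 ± 0.11 on day 5 (adjusted p = 0.273). Lig3 stood at 0.21, 0.24 and 0.10 at day 5, above all 4 untreated samples, which lay between -0.14 and 0.02.

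In the double-strand break and checkpoint group, 5 of 16 genes were tested. Besides Parp3 and Rad9a these were Brca1, Rad1 and Rad52, and none of the 3 passed in any comparison. Brca1, a ubiquitin ligase of homologous recombination, had a day 5 change of -0.33 ± 0.25 (adjusted p = 0.513), with 3 values at day 2. Rad52, a strand annealing protein, stood at -1.62, -0.68 and -0.57 at day 5, with replicate 1 far below the other samples. Day 5 replicate 1 was also the lowest of the 15 samples for Ercc8, Fancl, Gins4, Pcna, Pola2, Pold4, Pole4, Polk and Rpa1.

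Of the 8 genes outside the named complexes and pathways, 5 were tested, among them Ercc6l2, described above. Ercc6l, a mitotic helicase-like protein, stood at -1.94, -1.0044, -0.67 and -2.08 in untreated samples, at -0.43, -0.52 and -1.09 in the 3 day 2 samples with a value, and at -1.68 and -2.10 in the 2 day 5 samples with one. Its day 2 change from untreated was 0.74 ± 0.36 (adjusted p = 0.212). Its difference between day 5 and day 2 was -1.20 ± 0.43 (adjusted p = 0.059), the largest of the families in size, and it passed in some alternatives. Parp16, an ADP-ribosyltransferase of the endoplasmic reticulum, had values at day 2 in 3 samples, 0.93, 1.03 and 0.45, above the untreated range of 0.15 to 0.40, with a change of 0.55 ± 0.18 (adjusted p = 0.059).

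The remaining 48 genes had too few values to test, and 17 of them had none in any sample. Those 17 included Mcm2, Mcm3, Mcm7, Cdc45, Pold1, Prim2, Brca2, Xrcc1, Xrcc4, Xrcc6 and Rad18. All subunits of the Mcm helicase ring, Mcm2 to Mcm7, are therefore without a test. Mcm4 had 12 values, with means of -0.64 (n = 3) in untreated, -0.73 (n = 4) at day 1, -0.43 (n = 2) at day 2 and -0.38 (n = 3) at day 5. Mcm6 had means of -0.72 (n = 3), -0.55 (n = 2), -0.21 (n = 2) and -0.22 (n = 3) in the same order. Rfc4, a clamp loader subunit, had means of -1.22 (n = 2), -1.25 (n = 3), -0.83 (n = 3) and -0.56 (n = 2). Why these values are empty is not known here, so a missing value is not read as a low one.

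A list of other replication and repair genes outside the symbol rule held 121 genes, of which 70 were on the array and 29 were tested. Of the 29, 1 was called at day 1, 2 at day 2 and 1 at day 5 against untreated, beside 4.6%, 12.7% and 1.09% of all features. Dut (gene 110074), which removes dUTP and so keeps uracil out of DNA, rose by 1.13 ± 0.18 at day 1 (adjusted p = 0.0051) and by 1.20 ± 0.19 at day 5 (adjusted p = 0.0043). Its mean was -1.66 ± 0.17 (SD, n = 4) in untreated, -0.53 ± 0.22 at day 1 and -0.46 ± 0.28 (n = 3) at day 5; all untreated samples lay below those of days 1 and 5, which overlapped each other. At day 2, Asf1a, a histone chaperone of replicating chromatin, rose by 0.60 ± 0.14 (adjusted p = 0.0088), and Nhej1, a factor of non-homologous end joining, fell by 1.23 ± 0.22 (adjusted p = 0.0016).

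From day 2 to day 5, 4 of the 29 rose (Dut, Nhej1, Polg and Polm) and 4 fell (Asf1a, Cdc6, Dck and Smc6), against 25.5% called among all features. Nhej1 rose by 1.59 ± 0.24 (adjusted p = 0.00019), and Polm, a polymerase of end joining, by 0.77 ± 0.15 (adjusted p = 0.0017). Asf1a fell by 1.06 ± 0.15 (adjusted p = 9.5e-05), and Cdc6, which loads the Mcm helicase at origins, fell by 0.92 ± 0.25 (adjusted p = 0.012). In the comparison of day 5 with day 1, 6 of the 29 were called, beside 18.8% of all features: Hus1, Nhej1, Polg and Polm rose and Asf1a and Smc6 fell. Hus1, the third ring subunit beside Rad9a and Rad1, rose by 0.70 ± 0.20 from day 1 to day 5 (adjusted p = 0.028), where Rad9a changed by -0.26 ± 0.16 (adjusted p = 0.265) and Rad1 did not pass.

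The blood samples also differed in cell type markers over the same days. The pan-leukocyte genes Ptprc, Coro1a and Laptm5 had values in at most 2 samples of a group, so the leukocyte label could not be checked by them. At day 2 all 5 tested neutrophil markers rose and all 4 tested monocyte markers fell against untreated. In the same comparison 2 of 4 erythroid, 2 of 3 natural killer cell and 1 of 4 B cell markers fell. There 1 of 3 T cell markers rose. At day 5, 3 of 4 B cell and 2 of 3 natural killer cell markers fell against untreated. Between day 5 and day 2, 4 of 5 neutrophil markers fell, 4 of 4 monocyte markers rose, 2 of 4 erythroid markers rose and 3 of 4 B cell markers fell. In that comparison 1 of 3 T cell and 1 of 3 natural killer cell markers also fell. From day 1 to day 5, 3 of 4 B cell, 2 of 3 natural killer cell and 2 of 5 neutrophil markers fell and 2 of 4 erythroid markers rose. At day 1, 2 of 4 platelet markers rose against untreated, while 2 of 4 monocyte and 1 of 4 B cell markers fell. The platelet means ranged from 3.37 to 3.78 over day 1 samples and from 1.92 to 2.34 over untreated ones. The mean log2 ratio of the neutrophil markers ranged from 0.35 to 1.18 over day 2 samples and from -1.13 to -0.59 over day 5 samples. That of the B cell markers ranged from 0.02 to 0.25 at day 2 and from -0.63 to -0.32 at day 5, and that of the erythroid markers from -1.48 to -0.52 and from 0.22 to 0.46. These lists moved across the same samples in which the 7 called genes differed, and their part in those differences was not tested. The dividing-cell markers ranged from -1.85 to -0.87 at day 2 and from -1.30 to -0.91 at day 5, and 1 of 5 rose.

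Replicate agreement bounds all these values. Across probes, the technical replicates of a sample had an r of 0.8288 to 0.9569, and the median r between samples was 0.785 within untreated, 0.895 within day 1, 0.779 within day 2 and 0.776 within day 5. The number of arrays limits the precision, and the median interval reached 0.30 log2 units to either side at days 1 and 2 and 0.33 at day 5.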

How the data were processed

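The authors deposited log ratios whose processing and log base the sources used here do not give. They were read as log2 of Cy5 (blood) over Cy3 (marrow pool), per the labels' dyes; base e cannot be told apart. Of 13443 probes, 10032 had 1 symbol in the platform annotation, 170 several and 3241 none. Columns held 5314 to 9398 values, with medians of -0.0028 to 0.025. The 30 columns were 15 samples in 2 technical replicates, which were averaged, and probes of a gene were averaged. Features with at least 3 values in untreated, day 1 and day 2 and 2 at day 5 were tested with limma 3.58.1 (R 4.3.3): 1 mean per group over all 15 samples, eBayes, and Benjamini-Hochberg adjustment over 6515 features within each of 6 comparisons. A gene was called at an adjusted p under 0.05. The procedure was tested on simulated data. P-values measure the spread between samples that the labels call independently harvested. The genes, role groups and lists were chosen with earlier results of these data known. For family genes called in a comparison, each sample's value is given in both groups compared and at least the range in the others. In each role group the pair with the largest changes against untreated is named. Some other genes were named after their values were seen, not all of them marked so in place. Among them are Lig1 between day 2 and day 1, Rad52, and those lowest in day 5 replicate 1. Alternatives covered normalization, missing values, technical replicates, replicate number, probes, weights, samples in the fit and single samples left out; scaling columns to 1 spread was added after the data were seen.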

Additional observations from a re-analysis of the deposited data

Results flagged for a closer look

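In 2 of 48 gene groups of 4 samples a sample stood apart from the others, where chance alone gives about 5% of groups. Polk at day 1 was 0.24 in replicate 2, against -0.0036 to 0.03 in the others. Orc6 at day 2 was -0.23 in replicate 2, against -0.66 to -0.62 in the others.

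Changes from untreated differed between days for 7 genes by limma's test of the difference itself, which is the comparison between those days. The change at day 5 minus that at day 1 was -0.78 for Polk, 1.13 for Rpa3 and -0.55 for Parp3. The change at day 5 minus that at day 2 was -0.47 for Ercc6l2, -0.35 for Fancl, -0.67 for Pola2, 0.78 for Rpa3, -0.39 for Polk and -0.48 for Rad9a. Rpa3 was the only one of them with a positive difference.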

How the results depend on the processing

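The fall of Polk and the rise of Rpa3 between day 5 and day 1 kept their calls under all 26 alternatives. Over 25 named changes and 643 recomputations, 583 kept call and direction, 45 lost the call, 14 gained one and 1 turned (Gins4 at day 5 against untreated, 0.11 with columns scaled to 1 spread); the cause was not tested. Against untreated, where 0 genes were called, day 1 gave 1 under quantile normalization (7.09% of the features tested). Also at day 1, features complete in all samples gave 1 (7.26%), a random effect per sample 1 (11%) and only the 2 groups compared 1 (8.87%). Array weights gave 2 there (13.3%) and columns scaled to 1 spread 2 (8.15%). Day 2 gave 1 under quantile normalization (15.7%) and 3 with scaled columns (16.2%). Day 5 gave 2 with the sample as a random effect (6.25%). Between day 2 and day 1 that random effect gave 1 (4.21%). Between day 5 and day 2, where 6 were called, technical replicate 1 alone gave 10 (26.3%). Only the 2 groups compared gave 1 (14.4%) and scaled columns 3 (21.2%). The F test, with 2 called, gave 4 with complete features, 4 with technical replicate 1 alone, 4 with the random effect and 4 with array weights. Shares of all features under the F test in these settings are not given here, so these counts are not read further. Leaving out 1 sample gave 0 to 1 at day 1 (0.921% to 6.72%) and 0 to 1 at day 2 (8.12% to 14.5%). It gave 0 at day 5 (0.414% to 3.44%) and 2 to 5 between day 5 and day 1 (11% to 24.1%). Between day 5 and day 2 it gave 1 to 11 (18.4% to 28.5%). The F test then called 1 to 4, and 7 to 10 genes passed in the list outside the symbol rule. For both of these ranges the share of all features is not given here.

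Of 624 recomputed role medians of change against untreated, 14 moved by more than the typical replicate SD. Origin and helicase gave 0.18 at day 1 with technical replicate 1 alone, 0.20 at day 2 under quantile normalization and 0.21 with scaled columns, and at day 5 0.22 with technical replicate 2 alone and 0.16 with scaled columns. Translesion polymerases gave 0.40 at day 1 and 0.013 at day 2 with complete features, which leave Polk alone. The clamp, loader, RPA, ligase and nucleotide group gave 0.42 at day 5 with scaled columns. The group of genes outside the named complexes and pathways gave 0.0074 at day 1 and 0.18 at day 2 with technical replicate 2 alone. It gave 0.10 at day 2 with complete features. Without single samples, the origin median ranged from -0.0383 to 0.12 at day 1, the clamp group's from -0.14 to 0.34 at day 5 and the double-strand break group's from -0.47 to -0.19 at day 5. The cause was not tested.

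The replicate numbers did not pair the samples: deviations of 21 same-numbered pairs correlated between -0.28 and 0.17, 6 over 0.1, and 2 of 15 samples correlated best with their own number. With the replicate number as a block, 1 gene was called at day 2 against untreated (Parp16), beside 10.4% of all features. There were 3 between day 5 and day 1 and 6 between day 5 and day 2, beside 14.3% and 22.3%. The block ended the calls of Parp3 between day 5 and day 1 and of Rad9a between day 5 and day 2, and Ercc6l passed in both. Few arrays and missing values limit all of these results.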
